A study of Mus musculus with 8 samples.

Results

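Translation initiation and elongation factors were examined in bulk RNA-seq of skin epithelium in which MOF or its partner KANSL1 had been deleted. Members were the genes whose symbol begins with Eif and a digit from 1 to 6, or with Eef and 1 or 2. The pattern matched 67 of the 23432 symbols in the files. The 4 eIF2 kinases (Eif2ak1 to Eif2ak4) and the Y-linked Eif2s3y were left out and no pseudogene symbol matched, which left 62 members. Of these, 4 are Argonaute genes listed under the older symbols Eif2c1 to Eif2c4 (now Ago1 to Ago4). They act in small RNA silencing and are not translation factors, so counts are also given for the other 58 members.

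The study sequenced 8 libraries in 4 groups of 2. At E16.5, epithelial cells that carried K14-H2BGFP were sorted from dorsal skin of control and MOF cKO (MOF fl/fl, K14Cre) embryos. At P0.5, whole epidermis was peeled with Dispase from control and Kansl1 cKO (Kansl1 fl/fl, K14Cre) pups and lysed in TRIzol. All mice were of a mixed C57Bl/6J and CD-1 background, and controls were littermates, either wild type or heterozygous. Krt14-Cre acts only in keratin 14 lineage epithelium and 1 other MOF cKO embryo of the study, taken at an earlier stage, was mosaic for the loss, so a cKO library could hold cells that escaped deletion. The samples are separate by label, but nothing states whether each came from 1 animal or a pool, so p-values measure the spread between these libraries.

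Initiation factors bring the initiator tRNA and the small ribosomal subunit to the capped end of an mRNA and to its start codon. eIF2 carries the initiator tRNA, eIF2B recharges eIF2 with GTP, eIF3 bridges the subunit to the mRNA, and eIF4F binds the cap and unwinds the leader. Elongation factors then deliver aminoacyl-tRNA and move the ribosome along the codons. Many mRNAs of this machinery, those of the elongation factors above all, begin with a run of pyrimidines through which mTORC1 controls their own translation. In skin, protein synthesis is kept low in hair follicle stem cells and rises as their progeny commit to differentiate.

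Promoter sequence came from RefSeq (GRCm38.p6), which had an entry for 47 of the 62 members. The sequences shown belong to the 3 elongation factors that rose in MOF cKO and had an entry, and to the initiation factors Eif2a and Eif2d, which fell. Each runs from 75 bases before the annotated start to base 25 of the transcript, 5′ to 3′ on the strand of the gene. Capitals mark the words CACGTG, CCGGAAGT and TGACGTCA on either strand, and a C followed by at least 6 pyrimidines near the start.
Eef1a1 (chr9:78481700-78481799, minus strand): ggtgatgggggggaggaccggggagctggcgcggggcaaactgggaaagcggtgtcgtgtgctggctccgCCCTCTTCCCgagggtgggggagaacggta
Eef1b2 (chr1:63176756-63176855, plus strand): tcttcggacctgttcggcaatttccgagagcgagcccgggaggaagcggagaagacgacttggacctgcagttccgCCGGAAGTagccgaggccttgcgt
Eef2 (chr10:81176556-81176655, plus strand): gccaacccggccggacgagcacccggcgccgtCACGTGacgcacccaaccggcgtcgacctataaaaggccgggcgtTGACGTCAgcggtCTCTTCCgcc
Eif2a (chr3:58525746-58525845, plus strand): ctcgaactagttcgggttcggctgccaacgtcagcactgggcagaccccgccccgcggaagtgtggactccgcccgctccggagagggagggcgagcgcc
Eif2d (chr1:131153132-131153231, plus strand): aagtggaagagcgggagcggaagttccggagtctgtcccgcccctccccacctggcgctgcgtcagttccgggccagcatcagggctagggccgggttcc

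Over the full entries of 300 bases, CACGTG, the core E-box, stood in 12 of 47 members (25.5%), against 8.1% of the 27025 genes with an entry. CCGGAAGT, an ETS-type word, stood in 8 members (17.0%) against 4.3%, and TGACGTCA, a CRE word, in 1 member (2.1%) against 2.0%. A pyrimidine run that began within 20 bases of the annotated start occurred in 15 members (31.9%) against 24.0% of all genes. The 3 words were searched on both strands, the run on the strand of the gene, none of the words contains another, and a gene with several entries counted once if any held the letters. CACGTG stood in 4 of 17 members that rose (23.5%), in 8 of 26 members without a call (30.8%) and in 0 of 4 that fell. The 26 include Eef1a2, which held a run, and Eif3j1, neither of them tested. The run occurred in 3 of the 17 that rose (17.6%) and in 12 of the other 26 (46.2%). These are matches of letters beside annotated starts, which need not be the starts used in these cells. The 27025 genes were not limited to those expressed in these cells, and no comparison with expressed genes alone was made.

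Reads counted on genes ranged from 22484018 to 27561688 per library at E16.5 and from 9108709 to 19774643 at P0.5. Normalised read counts are given as CPM, the reads of a gene relative to the TMM-scaled library size, and levels between genes as TPM, which also divides by exon length. Changes of a gene given without a unit are log2 fold changes of cKO over control. Kat8, which encodes MOF, had 14.5 and 14.7 CPM in control, against 12.5 and 13.9 in MOF cKO (log2 fold change -0.14, adjusted p = 0.554). Counts per gene do not resolve the deleted exons. The basal keratinocyte markers Krt5 and Krt14 were high in all 8 libraries. Xist was at 1518 CPM in replicate 1 of the E16.5 control, whereas the remaining E16.5 libraries had 9.99 to 12 CPM, and the Y-linked Ddx3y was at 0.228 CPM in the former and between 64.2 and 95.5 CPM in the latter. At P0.5, control replicate 2 had Xist at 1.23 CPM and Ddx3y at 117 CPM, while the other libraries had Xist between 371 and 427 CPM and no Ddx3y count. Sex, as these genes show it, therefore differed within each control group. Without the high-Xist library, the median log2 fold change at E16.5 was 0.43 for the members and -0.007 for all genes. With all E16.5 libraries these medians were 0.35 and -0.02.

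In E16.5 MOF cKO the translation factors were shifted upwards. Of 58 members tested, 23 rose and 4 fell, and 31 passed no call. The 27 that changed include every tested elongation factor (Eef1a1, Eef1b2, Eef1d, Eef1g and Eef2), the helicases Eif4a1, Eif4a2 and Eif4a3, the scaffolds Eif4g1 and Eif4g3, and 2 of the 3 subunits of eIF2. The largest rise was that of Eef1b2, 2.16-fold, and the largest fall among called members that of Eif2c4, 2.03-fold. Calls required more than a 1.5-fold change with an adjusted p no higher than 0.01 in edgeR's quasi-likelihood test, adjusted over all 13956 genes tested. Over all genes, 10.0% were called higher and 9.59% lower, against 39.7% and 6.90% of the members. Among the 54 tested members that are not Argonautes, 23 rose and 2 fell. The median log2 fold change of the 58 members was 0.35 and that of all genes was -0.02. Both MOF cKO libraries lay above both controls for 43 members (74.1%, against 34.9% of all genes) and below them for 6 (10.3%, against 37.7%).

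How many members pass depends on how the libraries are scaled. TMM factors were 1.11 in each control library and 0.886 and 0.913 in MOF cKO. Scaled by library size alone, the median of all genes moved to -0.32 and that of the members to 0.04, and 6 members rose and 6 fell. That was 10.3% of the members in each direction, against 5.51% of all genes called higher and 19.7% called lower. The 6 that still rose were Eef1b2, Eef1d, Eef1g, Eif2s1, Eif5a and Eif6. A library factor moves every gene by nearly the same amount, so the distance between the 2 medians could hardly change. It was 0.36 with library sizes and 0.37 with TMM, RLE and upper-quartile factors, which does not test the shift of the members. The members' share of all reads on genes rests on library size too, and as a sum it is weighted towards the most abundant members. It was 3.28% and 3.01% in control, against 4.31% and 4.02% in MOF cKO, and the 2 groups did not overlap. The elongation factors alone took 1.93% and 1.74% of reads in control, against 2.80% and 2.52% in MOF cKO.

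**Figure D1:**
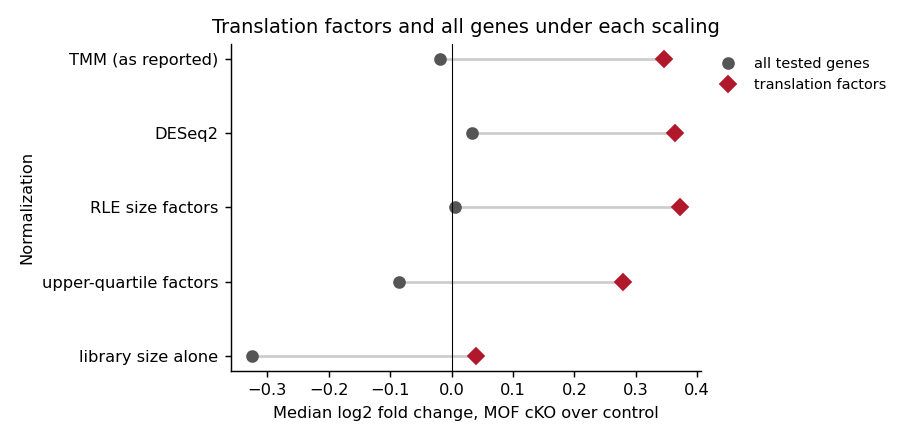
Median log2 fold change (x axis, MOF cKO over control at E16.5) of the tested translation factors (diamonds) and of all tested genes (circles) under 5 normalizations (y axis). Both medians moved left together with library sizes alone, from 0.35 to 0.04 and from -0.02 to -0.32. A library factor moves all genes nearly alike.

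Cell type markers also differed between these libraries, and their part in the results was not tested. The summed level of 6 suprabasal keratinocyte markers was 4075 and 3305 CPM in control, against 9058 and 9969 CPM in MOF cKO, and 5 of the 6 rose. The sum over 10 macrophage markers was 20.6 and 45.6 CPM in control, against 102 and 135 CPM in MOF cKO, with 8 of 10 called higher. Cd68 made up most of the control sum and its groups overlapped (18.1 and 41.7 CPM in control, against 22.9 and 51.9 CPM in MOF cKO). Lyz2, a macrophage marker, was at 0.0978 and 0.289 CPM in control and at 21.2 and 22.8 CPM in MOF cKO. The 6 dermal fibroblast markers summed to 915 and 1549 CPM in control, against 1537 and 2146 CPM in MOF cKO, so the sums overlapped, and none was called. Of the 6, Dcn was lower in both MOF cKO libraries (495 and 509 CPM in control, against 411 and 404 CPM) and the other 5 were higher. The sum over 5 basal keratinocyte markers overlapped between the groups (32590 and 31700 CPM against 29000 and 36000 CPM), and Krt5 and Krt14 made up most of it. As single genes, only Krt5 and Itga6 overlapped. Both MOF cKO libraries were lower for Col17a1 and for Trp63 (708 and 632 CPM in control, against 484 and 417 CPM) and higher for Krt14. None of these markers was called. In bulk samples more cells of a type and more RNA per cell cannot be told apart.

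**Figure D2:**
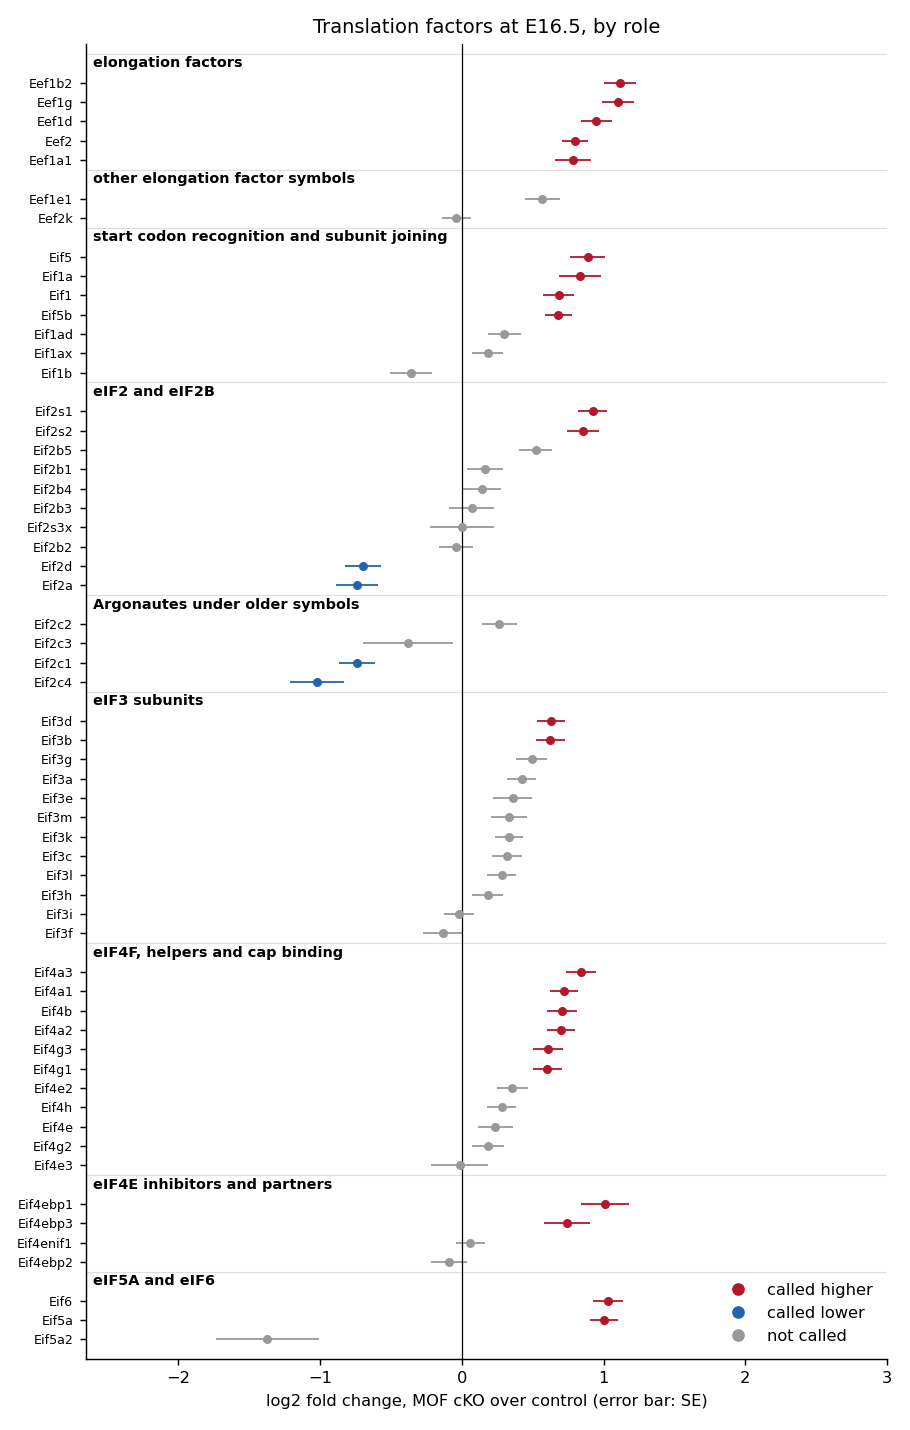
Log2 fold change of each of the 58 tested members in E16.5 MOF cKO over control (x axis, with its standard error), grouped by role, with members called higher in red and lower in blue. All 5 tested elongation factors lie between 0.79 and 1.11, while eIF2B subunits and most eIF3 subunits were not called.

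All 5 tested elongation factors rose (median log2 fold change 0.95). Eef1a1, which carries aminoacyl-tRNA to the ribosome, lies on the minus strand of chromosome 9 (78478449 to 78489151, mm10). It is the most abundant member per length in every group. It had 11120 and 9826 CPM in control, against 19760 and 16330 CPM in MOF cKO. Both MOF cKO libraries were higher (log2 fold change 0.79, standard error 0.125, adjusted p = 0.00315), and this call was lost with library sizes alone (0.48, adjusted p = 0.013). Eef2, the translocase that moves the ribosome by a codon (chromosome 10, 81176631 to 81182498), had 3635 and 3522 CPM in control, against 6243 and 6207 CPM in MOF cKO (0.80, standard error 0.0932, adjusted p = 0.00102). Replicates of Eef2 differed far less than the genotypes did.

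All 3 tested subunits of the exchange complex that reloads eEF1A with GTP rose. Its catalytic subunit Eef1b2 (chromosome 1, 63176825 to 63180486) had 959 and 867 CPM in control, against 2106 and 1846 CPM in MOF cKO (log2 fold change 1.11, standard error 0.114). Its structural subunit Eef1g (chromosome 19, 8967041 to 8978479) had 1435 and 1260 CPM in control, against 3037 and 2754 CPM in MOF cKO (1.10, standard error 0.113). Eef1d, a further exchange subunit, had 244 and 220 CPM in control, against 463 and 433 CPM in MOF cKO (0.95, standard error 0.108). The largest adjusted p of the 3 was 0.00094, and their groups did not overlap. Eef1a2, the homolog of Eef1a1 found in muscle and neurons, had 0 counts in every E16.5 library and at most 0.344 CPM at P0.5, and was not tested. Eef1a1 has many processed copies in the genome, and reads that align to more than 1 place are not in these counts. Such reads were 9.21% and 9.62% of control and 10.1% and 8.57% of MOF cKO libraries. Eef1e1, a scaffold of the tRNA synthetase complex despite its symbol, was 0.57 higher and just missed the threshold (adjusted p = 0.0102). Eef2k, the kinase that inhibits eEF2, was at -0.04 and its groups overlapped (170 and 162 CPM in control, against 167 and 158 CPM in MOF cKO).

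**Figure D3:**
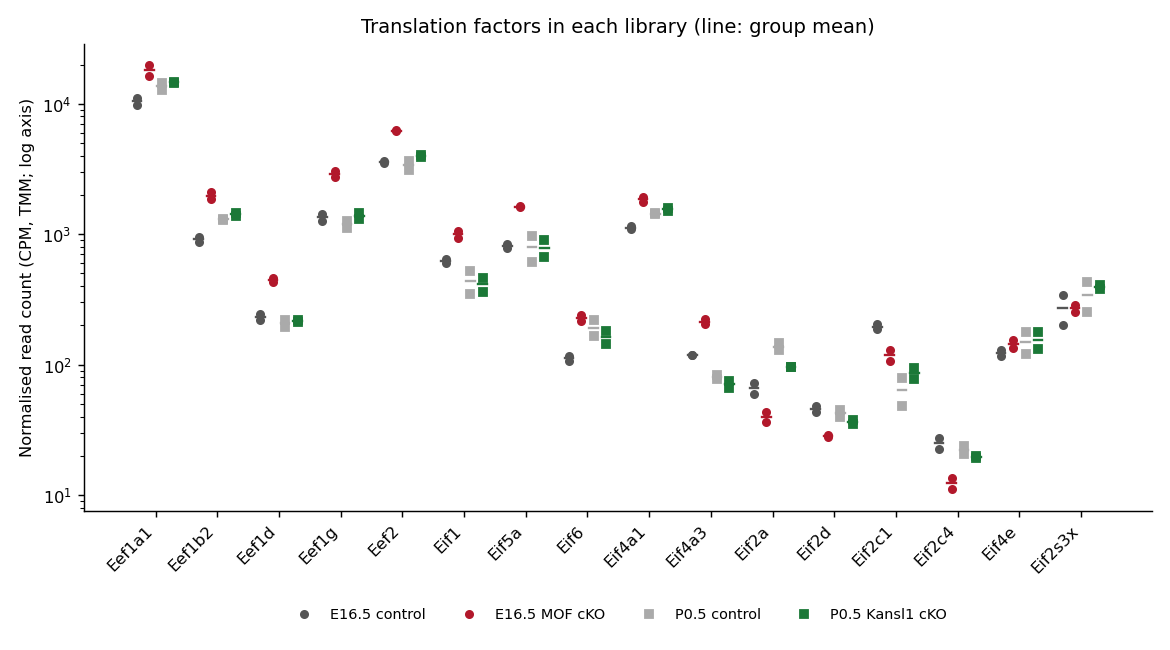
Normalised read count (CPM after TMM scaling, log axis) of 16 members in each of the 8 libraries, with points for libraries and a line for the group mean. The elongation factors, Eif1, Eif5a, Eif6, Eif4a1 and Eif4a3 were higher in both E16.5 MOF cKO libraries than in both controls, Eif2a, Eif2d, Eif2c1 and Eif2c4 were lower, and the control libraries of Eif2s3x were far apart.

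Factors that act at the start codon rose in 4 of 7 tested members (median log2 fold change 0.68). Eif1, the guard of start codon fidelity, had 604 and 642 CPM in control, against 1060 and 940 CPM in MOF cKO (0.68, standard error 0.108, adjusted p = 0.00302). Eif5, which triggers GTP hydrolysis by eIF2, had 351 and 296 CPM in control, against 631 and 565 CPM in MOF cKO (0.89, standard error 0.123, adjusted p = 0.00187). Both groups stayed apart for each gene. Eif1a, which partners Eif1 on the small subunit, rose by 0.83 and Eif5b, which joins the ribosomal subunits, by 0.68. The exons of Eif5b overlap those of Rev1 on the opposite strand over 16.8% of their length, and the strand setting of the counting is not stated. The X-linked Eif1ax, which encodes nearly the same protein as Eif1a, was 0.18 higher and was not called (79.0 and 74.8 CPM in control, against 89.7 and 85.0 CPM in MOF cKO). Eif1b, a homolog of Eif1, was at -0.36 (adjusted p = 0.0963).

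Within eIF2, the alpha and beta subunits rose and the gamma subunit was not called. Eif2s1 encodes the alpha subunit whose phosphorylation restrains initiation under stress. It had 112 and 103 CPM in control, against 202 and 205 CPM in MOF cKO (log2 fold change 0.92, standard error 0.103, adjusted p = 0.000895). Eif2s2, the beta subunit, had 182 and 172 CPM in control, against 343 and 298 CPM in MOF cKO (0.86, standard error 0.113, adjusted p = 0.00157). Eif2s3x, the X-linked gamma subunit (chromosome X, 94188707 to 94212862), had 341 and 201 CPM in control, against 289 and 255 CPM in MOF cKO. Its log2 fold change was 0.00 (0.0029) with a standard error of 0.225. The higher control value belongs to replicate 1, the library with high Xist, and the gene escapes X inactivation. Without that library the log2 fold change was 0.43, and without the other control it was -0.33, neither of them past the threshold.

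None of the 5 tested subunits of eIF2B was called. Eif2b5, its catalytic subunit, came closest (100 and 97.3 CPM in control, against 131 and 152 CPM in MOF cKO, log2 fold change 0.52, adjusted p = 0.0112). The other 4 lay between -0.04 and 0.16. Eif2a and Eif2d, alternative carriers of the initiator tRNA that are not part of eIF2, fell. Eif2a (chromosome 3, 58525821 to 58557501) had 72.8 and 59.9 CPM in control, against 43.4 and 36.2 CPM in MOF cKO (-0.74, standard error 0.151, adjusted p = 0.00818). Eif2d (chromosome 1, 131153181 to 131187658) had 48.0 and 43.6 CPM in control, against 28.7 and 27.9 CPM in MOF cKO (-0.70, standard error 0.129, adjusted p = 0.00567). For each gene both MOF cKO libraries lay below both controls.

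Of the 4 Argonautes, 2 fell. Eif2c1 (Ago1) had 205 and 187 CPM in control, against 128 and 107 CPM in MOF cKO (log2 fold change -0.74, adjusted p = 0.00401). Eif2c4 (Ago4) had 27.3 and 22.6 CPM in control, against 13.6 and 11.1 CPM in MOF cKO (-1.02, adjusted p = 0.00567). These 2 genes are neighbours on the minus strand of chromosome 4 (126435012 to 126468583 and 126489541 to 126533472). Eif2c3 (Ago3), which lies beside Eif2c1 at 126331704 to 126429556, was at -0.38 with a standard error of 0.315, and Eif2c2 (Ago2), the slicer, on chromosome 15, was at 0.27. All 4 calls of lower members were lost when MOF cKO replicate 2 was left out, and only that of Eif2c1 remained without control replicate 1, with no change of sign.

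Most of the eIF3 complex, which bridges the small subunit to the mRNA, passed no call. Of its 12 tested subunits, 10 were higher (median log2 fold change 0.33) but only 2 rose past the threshold. Eif3b, a core scaffold, had 316 and 294 CPM in control, against 467 and 473 CPM in MOF cKO (0.62, adjusted p = 0.00326). Eif3d, which can itself bind the cap, had 147 and 145 CPM in control, against 221 and 231 CPM in MOF cKO (0.63, adjusted p = 0.00294). Antisense gene Gm17638 overlaps 43.3% of the exon length of Eif3d. Eif3h, the most abundant eIF3 subunit per length, was 0.18 higher and was not called (307 and 281 CPM in control, against 352 and 314 CPM in MOF cKO). Eif3f and Eif3i were at -0.13 and -0.02. Eif3j1 and Eif3j2, 2 nearly identical genes, had 0 counts in all 8 libraries. Reads that align to more than 1 place are not in these counts, so the 0 counts do not show that the 2 genes were silent. Eif4e1b, an eIF4E of the germ line, also had 0 counts in all 8 libraries.

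In the cap-binding complex, 6 of 11 tested members rose (median log2 fold change 0.60) and the cap-binding protein itself was not among them. Eif4a1, the main RNA helicase, had 1099 and 1151 CPM in control, against 1769 and 1937 CPM in MOF cKO (0.72, standard error 0.101, adjusted p = 0.00195). Eif4a2, its homolog, had 483 and 457 CPM in control, against 751 and 778 CPM in MOF cKO (0.70, standard error 0.0985). Eif4a3, the helicase of the exon junction complex, rose by 0.84. Both helicases of eIF4F thus rose by nearly the same factor. Eif4b, which stimulates the helicase, rose by 0.71, and the scaffolds Eif4g1 and Eif4g3 by 0.60 and 0.61, just over the fold threshold. Eif4g2, an eIF4G homolog that does not bind eIF4E, was at 0.19. Eif4e, which binds the cap, had 130 and 115 CPM in control, against 155 and 133 CPM in MOF cKO (0.24, adjusted p = 0.165).

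The inhibitors of eIF4E split by homolog. Eif4ebp1, the best known target of mTORC1 among them, had 18.4 and 19.7 CPM in control, against 43.2 and 33.3 CPM in MOF cKO (log2 fold change 1.01, standard error 0.169, adjusted p = 0.00383). Eif4ebp3 had 13.6 and 15.3 CPM in control, against 24.2 and 24.1 CPM in MOF cKO (0.74, standard error 0.159). Its adjusted p of 0.00999 lies at the threshold and was lost when any library was left out, and a readthrough gene on its own strand shares 67.3% of its exon length. Eif4ebp2 was at -0.09 and its groups overlapped (73.6 and 71.4 CPM in control, against 74.4 and 61.8 CPM in MOF cKO). Eif4enif1, which carries eIF4E into the nucleus, was at 0.06.

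Eif5a and Eif6 were among the largest rises. Eif5a, which frees ribosomes stalled on prolines and is the protein that carries hypusine, lies on chromosome 11 (69916714 to 69921958, minus strand). It had 840 and 784 CPM in control, against 1651 and 1603 CPM in MOF cKO (log2 fold change 1.002, standard error 0.0985, adjusted p = 0.000666). Its rare homolog Eif5a2 had 5.06 and 5.81 CPM in control, against 2.21 and 1.99 CPM in MOF cKO (-1.37, standard error 0.361). That value missed the threshold (adjusted p = 0.0215) and passed it with library sizes alone, with every gene of at least 1 count, and with the replicate number as a block. Eif6, which keeps the large ribosomal subunit from joining too early, had 116 and 107 CPM in control, against 217 and 238 CPM in MOF cKO (1.03, standard error 0.108, adjusted p = 0.000762).

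Across the 58 members, those with a higher control level per length tended to rise more (Spearman rho 0.47 between log2 fold change and control TPM, against 0.02 over 13859 genes). These points are genes of the same 4 libraries and not independent replicates, and the 2 measures share the control libraries.

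Genes that act on these factors were read from lists of kinases, cap and poly(A) partners, mTORC1 signalling, modifying enzymes, scanning and recycling, termination and rescue, and mitochondrial factors, 62 genes in all. In MOF cKO 6 of them rose and 7 fell (median log2 fold change -0.05), shares near the 10.0% and 9.59% of all genes, so the counts do not set these lists apart from other genes. Of 8 eIF2 kinases and phosphatase subunits, the heme-regulated kinase Eif2ak1 (35.4 and 38.7 CPM in control, against 18.7 and 15.6 CPM in MOF cKO, log2 fold change -1.11) and the double-stranded RNA kinase Eif2ak2 (18.3 and 20.2 CPM against 6.98 and 9.91 CPM, -1.18) fell and none rose. Among 10 poly(A) and cap partners, Pabpc1, the poly(A)-binding protein that circularises mRNA, rose by 1.07 (1162 and 990 CPM in control, against 2496 and 2009 CPM in MOF cKO) and Larp1, which binds pyrimidine-rich leaders, by 0.60, and Paip2b, an inhibitor of Pabpc1, fell (-0.68).

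Of the 14 mTORC1 genes, 3 rose, 2 fell and 9 passed no call, beside the same 10.0% and 9.59% of all genes. Sesn2, a leucine sensor that inhibits mTORC1, had 26.9 and 26.8 CPM in control, against 98.8 and 132 CPM in MOF cKO (log2 fold change 2.104, standard error 0.161, adjusted p = 0.000355). Ddit4, another inhibitor, rose by 0.92, as did Rheb, the activating GTPase, by 0.70. Tsc1 and Tsc2, the subunits of the complex that restrains Rheb, fell (-0.86 and -0.70). Among 9 modifying enzymes, Dohh, which completes hypusine on eIF5A, rose by 0.99 (39.3 and 36.8 CPM in control, against 73.5 and 77.6 CPM in MOF cKO). The 5 termination and rescue genes and the 7 scanning and recycling genes held no call. Of 9 mitochondrial translation factors, 8 were lower and 2 of them passed, the initiation factor Mtif2 (-0.93) and the recycling factor Gfm2 (-0.71). Gfm1 and Tsfm, also among the 8, lay near 0 (-0.01 and -0.04). The remaining factor, Tufm, was 0.35 higher and was not called (124 and 119 CPM in control, against 149 and 161 CPM in MOF cKO). The medians thus had opposite signs, 0.35 for the members (0.39 without the Argonautes) and -0.37 for the mitochondrial list, a difference for which no test was run. The mitochondrial list was lower in Kansl1 cKO as well (8 of 9, median -0.36, none called), so its sign was not particular to MOF cKO.

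**Figure D4:**
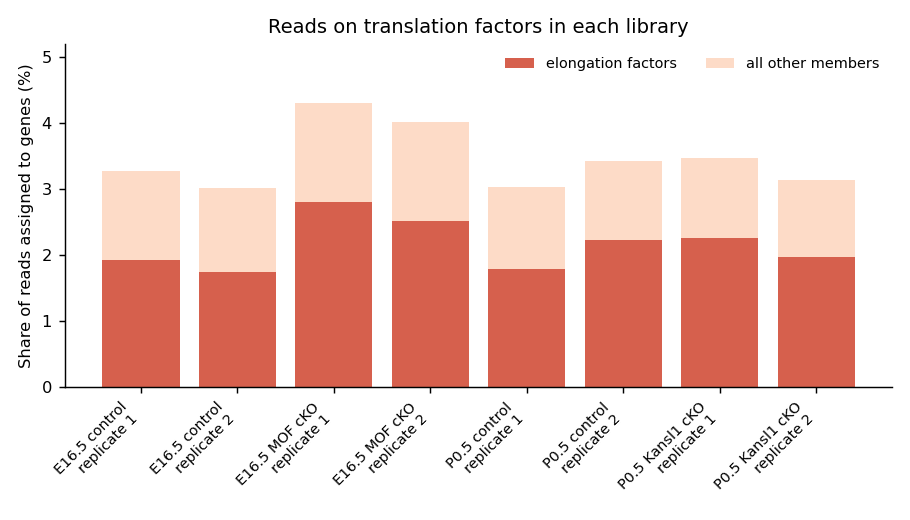
Share of the reads assigned to genes (y axis, percent) that fell on elongation factors (dark) and on all other members (light) in each library. Bars of both MOF cKO libraries reach 4.31% and 4.02%, above the E16.5 controls at 3.28% and 3.01%, while the P0.5 groups overlap between 3.04% and 3.48%.

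In Kansl1 cKO epidermis at P0.5 no member was called, as was the case for all genes (0% in each direction of 13031 tested, with a smallest adjusted p of 0.110). DESeq2 called 0 members, with 55 genes lower (0.317%) and 35 higher (0.202%) in all. At an unadjusted p under 0.05, 2 of the 58 members were lower and 1 was higher, against 8.26% and 7.43% of all genes. The median log2 fold change of the members was -0.02 and that of all genes 0.01. Kansl1 itself was lower in both cKO libraries (40.7 and 48.2 CPM in control, against 31.4 and 30.6 CPM in Kansl1 cKO, log2 fold change -0.52, adjusted p = 0.242). The cKO libraries lay above both controls for 15 members (25.9%, against 26.0% of all genes) and below them for 14 (24.1%, against 22.7%). Members took 3.04% and 3.43% of reads in control and 3.48% and 3.14% in Kansl1 cKO, so the groups overlapped.

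None of the 5 tested elongation factors was called in Kansl1 cKO, and all 5 had a log2 fold change above 0 (median 0.13). Both cKO libraries lay above both controls for Eef1a1, Eef1b2, Eef1g and Eef2, a pattern found in 26.0% of all genes, and overlapped for Eef1d. Eef1a1 had 12850 and 14440 CPM in control, against 14710 and 14450 CPM in Kansl1 cKO (log2 fold change 0.10, 95% interval -0.27 to 0.46). Eef2 had 3099 and 3639 CPM in control, against 4014 and 3888 CPM in Kansl1 cKO (0.23, interval -0.16 to 0.62). Eef1g was at 0.20 (interval -0.20 to 0.60), Eef1b2 at 0.13 (interval -0.24 to 0.51) and Eef1d at 0.05 (interval -0.34 to 0.44). All 5 intervals include 0, and those of Eef2 and Eef1g also include a 1.5-fold rise. The suprabasal marker sums were 76140 and 42660 CPM in control, against 43520 and 72980 CPM in Kansl1 cKO, so replicates differed more than genotypes. Melanocyte markers summed to 452 and 494 CPM in control, against 948 and 1084 CPM in Kansl1 cKO, and dermal fibroblast markers to 1745 and 1091 CPM, against 926 and 738 CPM. Among the fibroblast markers, 5 were lower and Dcn was higher (0.52), with groups that overlapped. Macrophage markers summed to 177 and 212 CPM in control, against 262 and 286 CPM in Kansl1 cKO. The part of these cells in the values of the members was not tested.

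The members with the lowest p in Kansl1 cKO were Eif2a, Eif4g3 and Eif2b2. Eif2a had 129 and 145 CPM in control, against 95.3 and 95.4 CPM in Kansl1 cKO (log2 fold change -0.52, interval -0.90 to -0.15, unadjusted p = 0.0133, adjusted p = 0.229 from edgeR). Its direction was that of MOF cKO, in which it fell. Eif4g3 was higher, with 58.8 and 50.8 CPM in control, against 79.9 and 75.3 CPM in Kansl1 cKO (0.51, interval 0.13 to 0.88, adjusted p = 0.237). Eif2b2, a regulatory subunit of eIF2B, had 40.6 and 47.1 CPM in control, against 33.2 and 33.0 CPM in Kansl1 cKO (-0.41, adjusted p = 0.307). For each of the 3 the groups did not overlap, and none passed after adjustment. The other members among the 5 highest were Eif4e3 (0.59), Eif2c1 (0.42), Eif4a2 (0.36) and Eif2c2 (0.33), and among the 5 lowest Eif5a2 (-0.77), Eif2b1 (-0.30) and Eif4ebp1 (-0.30). Eif2s3x had 429 and 255 CPM in control, against 381 and 405 CPM in Kansl1 cKO, where the low value is that of the control library with low Xist. Of the 61 pathway genes tested, 0 were called and 8 were lower and 1 higher at an unadjusted p under 0.05, against the 8.26% and 7.43% of all genes.

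**Figure D5:**
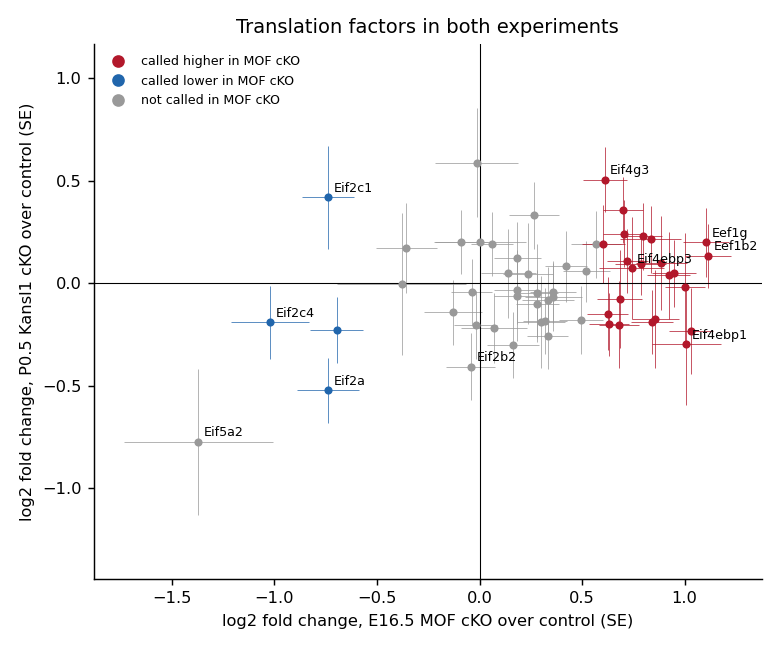
Log2 fold change of each tested member in E16.5 MOF cKO (x axis) and in P0.5 Kansl1 cKO (y axis), each over its own control and with its standard error. Members called in MOF cKO (red and blue) spread from -1.02 to 1.11 along x and scatter around 0 along y, where no member was called.

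Whether the 2 deletions had different effects was tested in a fit over all 8 libraries, as the difference between the log2 fold changes. No member passed at an adjusted p of 0.01, while 1.76% of 14565 genes differed upwards and 1.17% downwards. At an unadjusted p under 0.05, 24 of the 58 members had a higher and 3 a lower effect in MOF cKO than in Kansl1 cKO, against 14.8% and 16.4% of all genes. Those nearest the threshold were Eif4a3 (difference 0.996, 95% interval 0.59 to 1.40, adjusted p = 0.011), Eef1b2 (0.95, interval 0.55 to 1.34, adjusted p = 0.0115) and Eif6 (1.23, interval 0.69 to 1.77, adjusted p = 0.0139). At an adjusted p of 0.05, 11 members differed upwards and 1, Eif2c1, downwards (difference -1.19, adjusted p = 0.0371), against 7.04% and 6.76% of all genes. DESeq2 called 14 upwards and 1 downwards at 0.01, where it called 5.10% and 2.67% of all genes. Stage and cell isolation differed between the experiments along with the deleted gene and cannot be told apart in this difference.

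Control levels ordered the members alike at both stages. Per length, Eef1a1 stood at 16120 TPM in E16.5 control and 14570 TPM in P0.5 control, followed at E16.5 by Eef2 (4134 TPM), Eef1g (1989 TPM), Eef1b2 (1385 TPM) and Eif5a (1312 TPM). At E16.5, Eef1b2 and Eif5a were neighbours in this order. Eif2s3x was the most abundant of eIF2 and eIF2B (272 TPM at E16.5), Eif4a1 of the cap group (997 TPM), Eif1 of the start codon group (1141 TPM) and Eif3h of eIF3 (699 TPM). Over the 58 members expressed at both stages, the rank correlation of control levels was 0.93, a description across genes that share libraries. The size of a difference between the stages depends on the scale, since Eef1a1 was lower in P0.5 than in E16.5 control in TPM and higher in CPM (means of 13640 and 10470). No test between the stages was run, and stage and isolation cannot be told apart.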

How the data were processed

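The authors aligned paired reads of directional poly(A) libraries to mm10 and deposited raw counts of reads per gene symbol from HTSeq-count. The aligner is given as HISAT2 in the article's methods and as TopHat2 in the submitters' processing notes, and the annotation and strand setting are not given in the sources used here. Entries that name no gene held 21.1% to 26.0% of reads and were left out. The analysis used edgeR 4.0.16 under R 4.3.3 (filterByExpr, TMM, quasi-likelihood test, Benjamini-Hochberg adjustment), each experiment alone, and a fit over all 8 libraries for the difference. DESeq2 1.42.0, other scalings and filters, a replicate block and leaving out each library were alternatives. All 62 members were matched to GENCODE M21, Argonautes by synonym.

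Members and lists were chosen with earlier results of these data known. Named are all called members, in each experiment the 5 largest rises and falls (mean of 1 CPM or more), the most abundant per length of each role, X-linked members, close homologs and called pathway genes. The number of libraries limits precision.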

Additional observations from a re-analysis of the deposited data

How the results depend on the processing

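The 27 calls in MOF cKO were all kept under DESeq2, RLE factors, both other filters and the replicate block; 22 were kept with upper-quartile factors, 21 in 1 fit over all libraries, 10 with library sizes alone, and between 19 and 25 when 1 library was left out, and none reversed. With library sizes alone 6 members rose, the median of the members was 0.04 (0.039) and 2743 genes fell and 769 rose in all; with upper-quartile factors the median was 0.28 (0.279). Leaving out 1 library gave 0 to 4 lower members, 19 to 21 higher members and medians from 0.324 to 0.433. Without MOF cKO replicate 2 no lower call was left, and without control replicate 1 only 1 was. In Kansl1 cKO the median ranged from -0.094 to 0.107.

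For the difference of effects, the number of calls over all genes moved with the setting too. The main fit called 256 of 14565 genes up and 170 down. At an adjusted p of 0.05 these were 1026 and 985, with RLE factors 270 and 124 and with upper-quartile factors 287 and 151. Of 18447 genes, DESeq2 called 940 up and 492 down, and a filter that kept any gene with a count 1112 and 539. The member counts cannot be read apart from these totals. Among the members, DESeq2 gave 14 up and 1 down and the looser filter 13 and 1. An adjusted p of 0.05 gave 11 and 1, RLE factors 2 up and upper-quartile factors 1 up. Leaving out 1 library gave 0 to 3 up and 0 to 1 down, the highest without P0.5 control replicate 2. Eif2s3x turned negative in MOF cKO with upper-quartile factors (-0.061), library sizes alone (-0.304) and every gene of at least 1 count (-0.007), and without 1 library it ranged from -0.326 to 0.429. In Kansl1 cKO it ranged from -0.158 to 0.626. The study describes 2 pairs of samples per experiment with littermate controls, but no label says that a replicate number marks a pair. Deviations of same-numbered libraries correlated at 0.251 in the MOF and -0.256 in the Kansl1 experiment. With them as a replicate block, 23 members rose and 5 fell in MOF cKO (2263 genes fell and 1903 rose in all), and 0 changed in Kansl1 cKO. A crossed pairing, chosen after seeing the data, gave 0 members and 1 gene in Kansl1 cKO. The cause of these moves was not tested.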
